A study of Homo sapiens with 18 samples.

Results

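Many human genes are named ZNF followed by a number, and those of them that lie outside chromosome 19 are described here. They were taken by symbol, from genes that GENCODE 44 annotates as protein-coding, and 221 of the 15258 genes in the deposited expression table met the rule. The annotation holds 262 such genes, so 41 of them have no value here. Of the 221, 210 had a mean of at least 1 TPM (an abundance scaled by transcript length and library total) over 9 libraries and were tested, and 11 lay below that level. RNA came from MEL624, an established human melanoma line, grown in DMEM with serum, as 3 lines: a control, wild type at PCIF1 and carrying a random sgRNA, and 2 clonal lines in which PCIF1 was knocked out, called KO1 and KO2. Each line had 3 replicates, A to C, of poly(A)-selected input mRNA. Each knockout line is 1 clone and there is 1 control line, so that an effect of PCIF1 cannot be told apart from differences between clones. The p-values rest on the spread of replicate libraries within lines, which may be technical in part. In bulk RNA, fewer cells that express a gene and less RNA per cell cannot be told apart.

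Most proteins named ZNF carry C2H2 zinc fingers, short loops held by a zinc ion between cysteines and histidines, and an array of them reads a DNA sequence. Many also carry a KRAB domain, which recruits the co-repressor TRIM28 (KAP1), and through it SETDB1, which methylates histone H3 at lysine 9, and HP1 proteins; this system silences transposable elements and some genes. A SCAN domain joins such proteins in pairs. The largest tandem arrays of KRAB zinc finger genes lie on chromosome 19, while the genes elsewhere include smaller arrays and many single genes with other roles, in chromatin, ribosome quality control and RNA binding. PCIF1 makes m6Am: it adds a methyl group to the first transcribed base of an mRNA where that base is an adenosine.

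Reads assigned to genes, recovered from the deposited values, numbered 7848089 to 11393206 per library. The 210 tested members had 81 to 19040 reads each over the 9 libraries, with a median of 1406.5. PCIF1 mRNA was lower in KO1 (24 ± 1.77 TPM) than in control (57.6 ± 3.84 TPM; SD, n = 3; log2 fold change -1.26, SE 0.0735, limma adjusted p = 1.65e-06; exact two-sided permutation p = 0.1, the smallest that 3 against 3 allows), while KO2 held 60.3 ± 3.86 TPM (log2 fold change 0.066, limma adjusted p = 0.542, exact permutation p = 0.5). The level of its mRNA was thus lower in the libraries labelled KO1 and leaves the label of KO2 unchecked. Of 12 melanocyte markers, MITF and ERBB3 are in the table and the others, PMEL, MLANA, TYR and SOX10 among them, have no value here, whereas 8 of 8 markers of dedifferentiated melanoma, such as AXL and FOSL1, were measured. Their summed level was 1903 to 1937 TPM in control, 1648 to 1766 in KO1 and 1505 to 1793 in KO2, most of it from FOSL1 and AXL (1019.6 and 709 TPM on average in control). Of these 8, 1 was higher and 3 were lower in KO1 (median log2 fold change -0.15) and 7 were lower in KO2 (-0.54). Of all tested genes 20.2% were higher and 14.1% lower in KO1, and 14.8% lower in KO2 (limma adjusted p under 0.05). TGFBI changed by -2.06 and -2.02, NGFR by -1.60 and -1.81, ERBB3 by -2.16 and -1.91 and MITF by -0.50 and 0.43 in KO1 and KO2 (each at a limma adjusted p under 0.05). NGFR was low, with means of 2.7, 0.899 and 0.815 TPM in control, KO1 and KO2 from 91, 29 and 24 reads. ERBB3 was low too, with 3.56, 0.81 and 0.959 TPM from 267, 58 and 64 reads. Markers of other cell types were few and low, apart from the broadly expressed KRT10. The 2 of 6 fibroblast markers in the table, LUM and COL1A1, summed to 0.745 to 1.02 TPM in control, 2.76 to 3.52 in KO1 and 1.26 to 1.87 in KO2, and the 2 of 6 endothelial ones, ESAM and EGFL7, to 8.57 to 9.55, 16 to 16.9 and 15.5 to 17.7. The defining immune marker PTPRC, the endothelial PECAM1 and VWF and the fibroblast COL1A2 and COL3A1 are not among the listed genes. Whether these markers have a part in the results on zinc finger genes was not tested.

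The translated canonical transcripts of the 221 genes gave a median of 9 fingers, found with the spacing of cysteines and histidines of the C2H2 pattern, and up to 36 in ZNF142. A KRAB-like stretch was found in 100 of them and a SCAN-like stretch in 20, with 10 genes carrying both and 111 neither. These calls come from a consensus search that allows mismatches and can miss a diverged domain. In 7 genes the pattern found 0 fingers: ZNF185, ZNF330, ZNF365, ZNF503, ZNF703, ZNF839 and ZNF862. ZNF185 is a LIM-domain protein of the actin cytoskeleton that shares the name but not the DNA-binding array. The genes lie on 20 chromosomes, in the largest numbers on chromosome 7 (27), chromosome 16 (27) and chromosome 1 (18), and 94 of them sit in 20 clusters in which at least 3 starts follow each other within 500 kb.

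Start sites are shown for 8 of these genes that the results below turn on, because PCIF1 acts on the first transcribed base. Each line is the strand of the gene, 5′ to 3′, with 80 bases before the annotated RefSeq start (GRCh38.p14) in lower case and the start base itself in capitals. ZNF860, ZNF185, ZNF268, ZNF853 and ZNF518B were higher in each clone, ZNF33B was higher in KO2, and ZNF385D and ZNF343 were lower in each clone.
ZNF860: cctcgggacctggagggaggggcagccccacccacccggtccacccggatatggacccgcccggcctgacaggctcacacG
ZNF185: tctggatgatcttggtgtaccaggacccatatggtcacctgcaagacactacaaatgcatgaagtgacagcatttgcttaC
ZNF268: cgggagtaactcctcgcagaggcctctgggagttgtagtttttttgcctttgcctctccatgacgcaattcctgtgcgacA
ZNF853: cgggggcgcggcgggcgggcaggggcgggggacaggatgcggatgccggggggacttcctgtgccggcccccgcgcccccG
ZNF518B: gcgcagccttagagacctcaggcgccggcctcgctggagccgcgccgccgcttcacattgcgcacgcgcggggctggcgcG
ZNF33B: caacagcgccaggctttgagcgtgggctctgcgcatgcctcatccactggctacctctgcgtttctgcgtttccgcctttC
ZNF385D: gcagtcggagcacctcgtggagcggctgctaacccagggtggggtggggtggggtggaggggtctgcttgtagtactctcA
ZNF343: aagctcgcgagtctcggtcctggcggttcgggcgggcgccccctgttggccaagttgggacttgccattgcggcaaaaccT

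The windows lie at chr3:31981670-31981750 (plus) for ZNF860, chrX:152914352-152914432 (plus) for ZNF185, chr12:133181415-133181495 (plus) for ZNF268, chr7:6615530-6615610 (plus) for ZNF853, chr4:10457426-10457506 (minus) for ZNF518B, chr10:42638570-42638650 (minus) for ZNF33B, chr3:21751210-21751290 (minus) for ZNF385D and chr20:2524522-2524602 (minus) for ZNF343, the word in parentheses being the strand. The annotated start base was A for ZNF268 and ZNF385D, G for ZNF860, ZNF853 and ZNF518B, C for ZNF185 and ZNF33B and T for ZNF343. Among the 5 genes shown that were higher in each clone the start base was A, C or G, and in the 2 that were lower it was A or T. RefSeq gave a start for 187 of the 221 genes, at the same base as the GENCODE canonical transcript for 164 of them; for ZNF185 and ZNF343 the 2 annotations differ. An annotated start is not a measured one in MEL624 cells.

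Over the 300 bases from 250 before to 50 after the start, the promoters of the 187 genes with a RefSeq entry held a median of 24 CG dinucleotides, against 26 for the 10161 protein-coding genes of the table and 14 for all 35116 RefSeq promoters. The letters CCGGAAG, which ETS factors bind, were found on either strand in 37.4% of them, compared with 19.8% of protein-coding promoters of the table and 10.3% of all promoters. GGGCGG, the GC box, was found in 63.1%, against 70.6% and 45%, and the TATA box letters TATAAA in 4.28%, against 5.38% and 11.5%. The palindromic NRF1 motif stood in 3.21% (2.33% and 1.24%), the E-box CACGTG in 6.42% (10.3% and 7.26%) and the AP-1 letters TGANTCA in 4.28% (4.36% and 7.71%). The motifs were searched on both strands. Of the 67 tested genes with CCGGAAG, 17 were higher and 4 lower in KO1 (median log2 fold change 0.14), and of the 111 without it 32 and 7 (median 0.12), by a limma adjusted p under 0.05 that called 20.2% of all genes higher and 14.1% lower. A match is a description of the letters, not a measured site.

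The genes were expressed at modest levels. Their median over the 9 libraries was 10.0 TPM (quartiles 6.07 and 20.4) for the 210 tested, against 19.3 TPM for all 14512 tested genes and 6.14 TPM for the 212 tested numbered ZNF genes on chromosome 19. Genes with a KRAB domain had a median of 7.28 TPM and those with neither domain 16.6 TPM. ZNF598, a ubiquitin ligase that marks collided ribosomes, stood highest, with 151, 144 and 148 TPM in the 3 control libraries, 164, 139.6 and 145 in KO1 and 179, 209.9 and 169 in KO2. ZNF622, which takes part in maturation of the large ribosomal subunit, averaged 125 TPM and ZNF593, another factor of that subunit, 111 TPM. Next in order came ZNF768 (99.2), ZNF664 (94.6), ZNF395 (68), ZNF511 (67.9), ZNF282 (65.1), ZNF367 (52.1) and ZNF512B (51.6 TPM). Of these 10, ZNF282 is the single one with a KRAB domain. Just above the limit for testing stood ZNF483 (1.1 TPM) and ZNF658 (1.2), and just below it ZNF19 (0.962) and ZNF879 (0.876).

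Zinc finger genes resemble one another, which limits how surely reads can be assigned. In 24 of the 221 genes more than 10% of the 50-base words of the canonical transcript also occurred in a transcript of another gene, and 77 genes overlapped another listed gene. Whether strand was used in counting reads is not stated, so that reads of overlapping genes cannot be told apart. The 128 tested genes with neither property showed 31 higher and 7 lower in KO1 and 15 and 13 in KO2 (limma adjusted p under 0.05), where all 14512 tested genes had 20.2% higher and 14.1% lower in KO1 and 15.6% and 14.8% in KO2. Among the called genes described below, shared words make the values of ZNF280D (48.3%), ZNF511 (44.3%, also overlapped by a readthrough gene) and ZNF365 (24.8%) uncertain. The same holds for ZNF343 (15.4%), ZNF532 (11.3%), ZNF736 (10.6%) and ZNF37A, each above 10%. Overlap with a listed gene on the same strand makes the values of ZNF268, ZNF605, ZNF695, ZNF707 and ZNF768 uncertain as well. ZNF75A, ZNF140, ZNF597, ZNF589, ZNF717 and ZNF503 overlap a listed gene on the other strand. Some further overlaps are given where the genes are described.

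The comparison of KO1 with control asks how the mRNAs of these genes differ in a PCIF1-edited clone. Of the 210 tested, 56 were higher and 13 lower in KO1 at a limma adjusted p under 0.05, adjusted over all 14512 tested genes, so that 32.9% were called, against 34.3% of all genes. The total share was thus close to the background, and the direction was uneven: 26.7% were higher (background 20.2%) and 6.19% lower (background 14.1%). The median log2 fold change was 0.12, with 0.035 over all genes. Among the called genes 81.2% were higher, a share that was 74.2% when each library was centred on its median, 71.2% with limma-voom on the recovered reads and 68.4% when a running median of 51 neighbouring genes was subtracted; over all genes it was 58.9%, 49.7%, 47.1% and 49.4%. The differences were mostly small, as 44 of the 69 called genes changed by 0.5 or less on the log2 scale. A difference of at least 1 on that scale was seen for 3 genes (1.43%, against 4.55% of all genes). The numbered ZNF genes of chromosome 19, measured in the same libraries, had 92 of 212 higher and 4 lower, with a median of 0.34. The count of 13 lower genes fell to 7 without control replicate B and 8 without KO1 replicate C, was 8 at a minimum of 5 TPM and 21 with limma-voom. Over all genes the 2047 lower became 1513, 1562, 1784 and 2965 in these settings, so the calls changed over the whole table.

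KO2 differed from control in fewer of them. There 25 were higher and 18 lower, 20.5% of 210 against 30.4% of all genes (limma adjusted p under 0.05; background 15.6% higher and 14.8% lower). The median log2 fold change was 0.036, with 0.0099 over all genes, and on chromosome 19 48 of 212 were higher and 8 lower with a median of 0.17. Changes of at least 1 on the log2 scale were seen for 4 genes (1.9%, against 4.61%): ZNF860, ZNF185 and ZNF853 upward and ZNF385D downward. The summed level of all 221 genes was 3519, 3462 and 3471 TPM in the control libraries, 3796, 3665 and 3695 in KO1 and 3701, 3724 and 3616 in KO2. Each clone library lay above each control library in this sum, and the clones overlapped each other. Abundant genes weigh most in a sum of TPM, so it does not show a rise of the genes in general. Libraries of KO1 and control did not overlap in 105 of the tested genes (50%; 49.9% of all genes), and those of KO2 and control in 83 (39.5%; 43.7%).

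Each clone was compared with the same 3 control libraries, so the comparisons are not independent of each other. Calls by limma in both clones at once were made for 24 genes. Of the tested genes 18 were higher in both (8.57%, against 8.47% of all genes) and 5 lower in both (2.38%, against 7.26% of all genes), while 1, ZNF217, was higher in KO1 and lower in KO2 (0.476%, against 1.34% of all genes). Another 45 were called against control in KO1 and not in KO2 (21.4%, against 17.2% of all genes), 19 in KO2 and not in KO1 (9.05%, against 13.3% of all genes) and 122 in neither (58.1%, against 52.4% of all genes). A call in 1 clone does not by itself show that the clones differ. In 4 tested genes, ZNF860, ZNF385D, ZNF117 and ZNF483, the mean of at least 1 line was under 1 TPM, so that they passed the filter through the other lines. Left out of the counts, a step chosen after seeing the data, they leave 55 higher and 12 lower in KO1, 24 and 16 in KO2 and 17 and 4 in both clones. The 6 clone libraries did not overlap the 3 control libraries in 48 genes (22.9%; 24.4% of all genes). The count of 18 higher in both was 11 without control replicate B and 11 without control replicate C. The count of 5 lower in both was 1 without control replicate B, 2 without KO1 replicate A, 3 without control replicate A and 3 without KO1 replicate C.

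**Figure D1:**
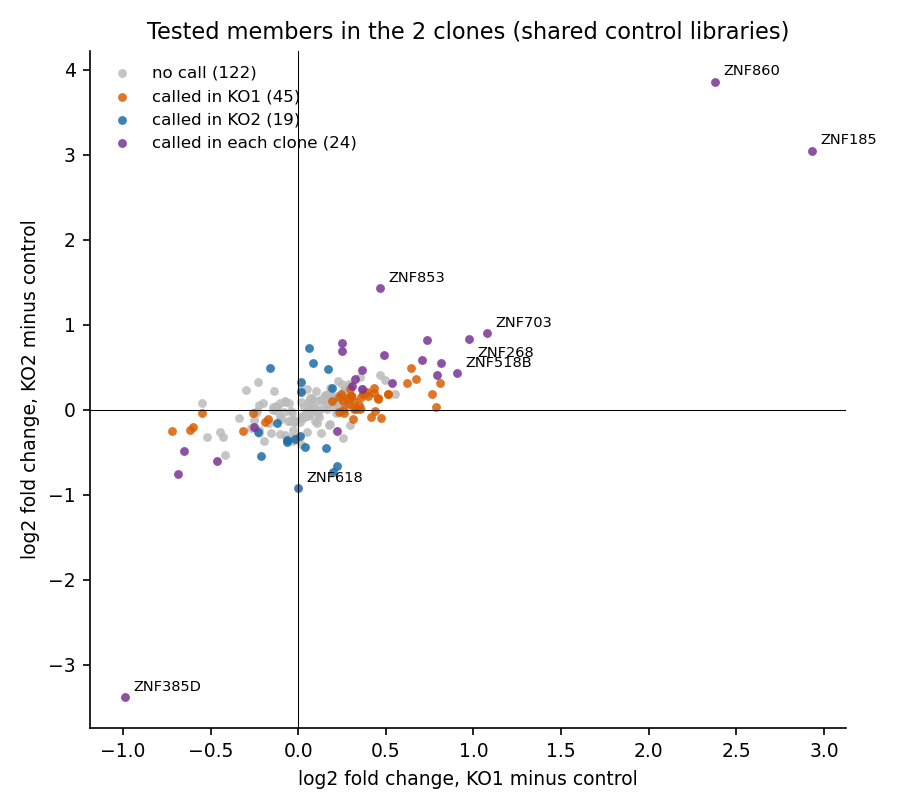
Each point is 1 of the 210 tested genes, with its log2 fold change in KO1 minus control on the x axis and in KO2 minus control on the y axis, coloured by the comparison in which limma called it. Most points lie within 0.5 of 0 on each axis, ZNF185 (2.93 and 3.05) and ZNF860 (2.38 and 3.86) stand at the upper right and ZNF385D (-0.99 and -3.38) at the lower left, and the axes share the control libraries.

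ZNF860, a KRAB zinc finger gene (chromosome 3, 31981750 to 31991723, plus strand; its span overlaps OSBPL10), rose from a very low level. It had 0.219, 0.157 and 0.265 TPM in the control libraries A, B and C, 1.01, 1.3 and 0.979 in KO1 and 3.79, 2.12 and 3.48 in KO2. The 3 lines did not overlap, and control was lowest and KO2 highest. The means were 0.214 ± 0.0538 TPM, 1.1 ± 0.176 TPM and 3.13 ± 0.89 TPM (SD, n = 3), from 5, 28 and 78 reads. The log2 difference was 2.38 in KO1 (SE 0.321, limma adjusted p = 0.000403) and 3.86 in KO2 (SE 0.321, limma adjusted p = 1.51e-05). With so few control reads the size of the fold change depends on the small prior count in the deposited values, and the gene passed the filter of 1 TPM only through the clones. With no filter on level the same differences had limma adjusted p of 0.000301 in KO1 and 1.17e-05 in KO2. ZNF185 (chromosome X, 152898067 to 152973481, plus strand) showed the other large rise, with 1.94, 2.01 and 0.897 TPM in control, 11.7, 10.4 and 12.7 in KO1 and 12.3, 11.8 and 13.6 in KO2. All 6 clone libraries lay far above the control ones, and the 2 clones overlapped. This was a log2 fold change of 2.93 in KO1 (SE 0.265, limma adjusted p = 3.40e-05) and of 3.05 in KO2 (SE 0.265, limma adjusted p = 2.06e-05).

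ZNF703, a co-repressor known as an oncogene of luminal breast cancer (chromosome 8, 37695782 to 37700019, plus strand), had 7.66, 6.25 and 8.96 TPM in control, 18.5, 14.7 and 14.7 in KO1 and 12.4, 18.2 and 12.4 in KO2. On the log2 scale it changed by 1.08 in KO1 (SE 0.178, limma adjusted p = 0.00139) and by 0.90 in KO2 (SE 0.178, limma adjusted p = 0.00368). The clone libraries all lay above the control ones and overlapped each other. ZNF268, a KRAB gene with 24 fingers (chromosome 12, 133181409 to 133214832, plus strand), had 4.0, 3.64 and 3.3 TPM in control, 7.55, 6.41 and 7.55 in KO1 and 5.99, 6.48 and 7.04 in KO2. Both clones were again above control without overlap. In KO1 the log2 fold change was 0.98 (SE 0.125, limma adjusted p = 0.000294), and in KO2 it was 0.84 (SE 0.125, limma adjusted p = 0.000698). ZNF594, with 21 fingers and no KRAB match, went from 4.06 to 5.93 TPM in control to 6.89 to 8.66 in KO1 and 7.87 to 8.73 in KO2 (log2 fold change 0.73, SE 0.152, limma adjusted p = 0.00462; log2 fold change 0.82, SE 0.152, limma adjusted p = 0.00251).

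In 2 of the genes that rose in each clone, the clones also differed from each other. ZNF518B, which binds the H3K9 methyltransferases EHMT1 and EHMT2 (chromosome 4, 10439880 to 10457426, minus strand), had 10.4, 8.57 and 9.4 TPM in control, 17.7, 17.6 and 17.6 in KO1 and 13.8, 12.2 and 12.2 in KO2. The lines did not overlap, and KO1 was highest (KO1: log2 fold change 0.90, SE 0.0894, limma adjusted p = 5.98e-05; KO2: log2 fold change 0.43, SE 0.0894, limma adjusted p = 0.0047; KO2 against KO1: log2 fold change -0.47, SE 0.0894, limma adjusted p = 0.0036). ZNF853 (chromosome 7, 6615610 to 6624290, plus strand) had 3.54, 2.94 and 2.81 TPM in control, 4.38, 3.96 and 4.44 in KO1 and 8.54, 8.14 and 8.23 in KO2. Here KO2 was highest without overlap. The log2 difference was 1.43 in KO2 against control (SE 0.124, limma adjusted p = 1.98e-05) and 0.97 against KO1 (SE 0.124, limma adjusted p = 0.000403). The smaller difference of ZNF853 in KO1 (log2 fold change 0.46, SE 0.124, limma adjusted p = 0.0161) was no longer called without control replicate B or C or KO1 replicate C (log2 fold changes of 0.40 to 0.43, limma adjusted p of 0.053 to 0.0553).

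ZNF81, a KRAB gene on the X chromosome whose span overlaps ZNF182, had 2.15 to 3.47 TPM in control, 4.08 to 5.14 in KO1 and 3.72 to 4.14 in KO2. This was a log2 fold change of 0.82 in KO1 (SE 0.186, limma adjusted p = 0.00758) and of 0.55 in KO2 (SE 0.186, limma adjusted p = 0.0479). The lower end of each clone lay above the top of the control range. Its call in KO2 was lost without control replicate B or C, KO1 replicate A, B or C or KO2 replicate A, B or C (log2 fold changes of 0.39 to 0.58, limma adjusted p of 0.0513 to 0.152). ZNF107 and ZNF695, 2 KRAB genes in clusters on chromosomes 7 and 1, were also higher in each clone: ZNF107 by 0.79 and 0.41 of log2 units (limma adjusted p = 0.00088 and 0.028) and ZNF695 by 0.71 and 0.58 (limma adjusted p = 0.00576 and 0.0164). For ZNF107 the KO2 call was lost without control replicate A or C or KO2 replicate B or C (log2 fold changes of 0.32 to 0.44, limma adjusted p of 0.0509 to 0.0957), and for ZNF695 without control replicate B or KO2 replicate A or C (log2 fold changes of 0.43 to 0.54, limma adjusted p of 0.0552 to 0.0582).

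**Figure D2:**
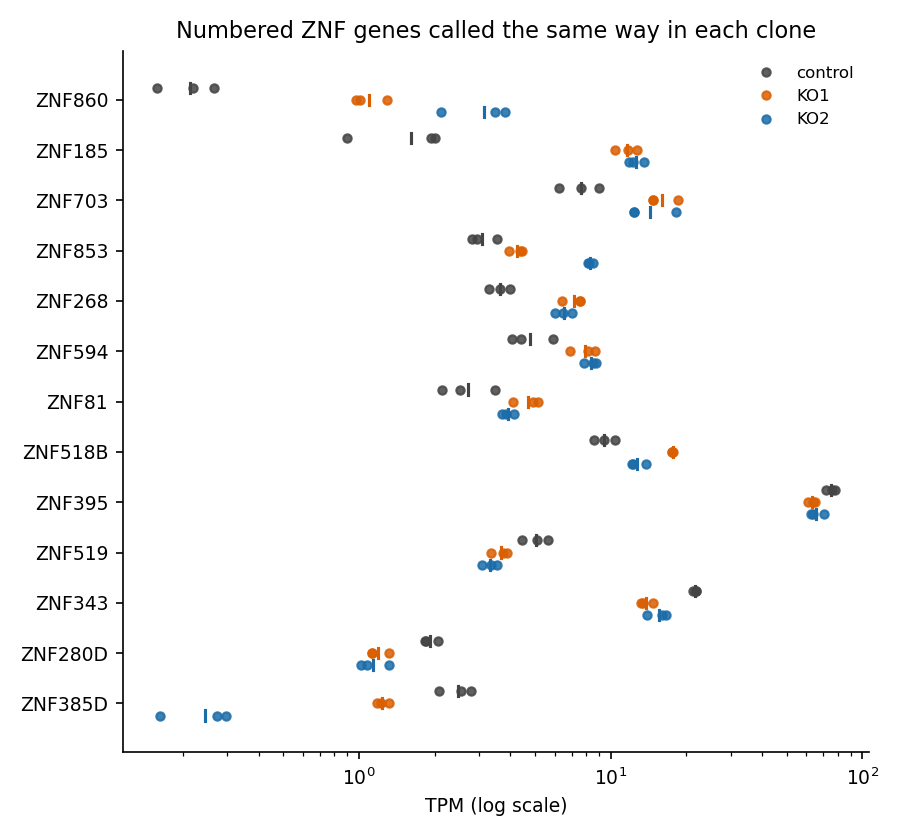
TPM on a log axis for 13 genes called the same way in each clone without overlap between clone and control libraries, the 8 with the largest mean rise and the 5 that fell. Each point is 1 library, the short line is the mean of 3, and colours give the line; ZNF185 runs from 0.897 to 2.01 TPM in control to 11.8 to 13.6 in KO2, and ZNF385D from 2.09 to 2.79 to 0.162 to 0.298.

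Among the 5 genes lower in each clone, ZNF385D changed most. It encodes a zinc finger protein of the ZNF385 family (chromosome 3, 21412218 to 22373321, minus strand), and had 2.79, 2.55 and 2.09 TPM in control, 1.18, 1.22 and 1.31 in KO1 and 0.298, 0.274 and 0.162 in KO2, from 280, 134 and 24 reads. The lines did not overlap, with KO2 lowest. On the log2 scale it changed by -3.38 in KO2 against control (SE 0.293, limma adjusted p = 1.99e-05) and by -2.39 against KO1 (SE 0.293, limma adjusted p = 0.000308). KO2 lay under 1 TPM, so that the gene passed the filter through control and KO1. With no filter on level, the differences from control had limma adjusted p of 0.0194 in KO1 and 1.43e-05 in KO2. The call in KO1 (log2 fold change -0.99, SE 0.293, limma adjusted p = 0.0253) was lost without control replicate A or B or KO1 replicate A, B or C (log2 fold changes of -1.03 to -0.90, limma adjusted p of 0.0585 to 0.082). Its relative ZNF385A, which binds RNA and p53, had 17.8, 21.1 and 20.4 TPM in control, 18.5, 15.7 and 16.9 in KO1 and 14.5, 14.2 and 12.1 in KO2, and was called in KO2 (log2 fold change -0.55, SE 0.0999, limma adjusted p = 0.00238) but not in KO1 (log2 fold change -0.21, SE 0.0999, limma adjusted p = 0.125). KO2 lay below control without overlap, while KO1 overlapped control.

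ZNF343, a KRAB gene (chromosome 20, 2481817 to 2524702, minus strand), had 21.2, 21.9 and 21.9 TPM in control, 13.2, 14.7 and 13.5 in KO1 and 16.6, 14 and 16.1 in KO2. In KO1 the log2 fold change was -0.65 (SE 0.0806, limma adjusted p = 0.000237), and in KO2 it was -0.48 (SE 0.0806, limma adjusted p = 0.00139). Every clone library was below every control library. Up to 50 tested genes around it on chromosome 20, numbered ZNF genes left out, had medians of -0.52 and -0.55, so that the genes around it were lower to a like degree. ZNF519, a KRAB gene on chromosome 18, fell from 4.45 to 5.64 TPM to 3.35 to 3.89 in KO1 and 3.08 to 3.54 in KO2 (log2 fold change -0.47, SE 0.138, limma adjusted p = 0.0252; log2 fold change -0.61, SE 0.138, limma adjusted p = 0.00793), and its neighbours had medians of -0.34 and -0.33. The KO1 call of ZNF519 was lost without control replicate A or B or KO1 replicate A or C (log2 fold changes of -0.48 to -0.39, limma adjusted p of 0.0558 to 0.0874).

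ZNF280D, of the ZNF280 family, had 1.83 to 2.07 TPM in control, 1.13 to 1.32 in KO1 and 1.02 to 1.32 in KO2 (log2 fold changes -0.69 and -0.76; limma adjusted p = 0.0248 and 0.0178). It was lower in each clone without overlap. Its call in KO1 was lost without control replicate A, B or C or KO1 replicate A or C (log2 fold changes of -0.72 to -0.63, limma adjusted p of 0.0513 to 0.0738), and that in KO2 without control replicate A or KO2 replicate B (log2 fold changes of -0.70 to -0.68, limma adjusted p of 0.0526 to 0.0578). Its relative ZNF280C went the other way, with log2 fold changes of 0.39 (limma adjusted p = 0.00625) and 0.21 (limma adjusted p = 0.0975). ZNF395, a factor linked to hypoxia responses and among the 10 most abundant, had 72, 76 and 77.9 TPM in control, 64.8, 61.1 and 63.7 in KO1 and 63.8, 70.7 and 62.4 in KO2. The log2 difference was -0.25 in KO1 (SE 0.0558, limma adjusted p = 0.00664) and -0.20 in KO2 (SE 0.0558, limma adjusted p = 0.0218). The ranges did not overlap control, although its call in KO2 was lost without control replicate B or C or KO2 replicate A or C (log2 fold changes of -0.19 to -0.16, limma adjusted p of 0.0672 to 0.0764). Its span overlaps FBXO16.

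KO2 and KO1 were compared with each other to see where the clones differ. Of the 210 tested genes, 14 were higher and 34 lower in KO2 than in KO1 (limma adjusted p under 0.05), 22.9% in all against 28.7% of all genes. By direction these were 6.67% and 16.2% against 11.8% and 16.9%, with a median log2 difference of -0.10 and -0.037 over all. Their libraries did not overlap in 78 genes (37.1%; 43% of all genes). The 14 became 8 without KO1 replicate C, 9 without KO2 replicate A and 9 after subtraction of the running median, and the 34 became 20 without KO1 replicate C. Over all genes the 1711 higher became 1275, 1390 and 1730 in these fits, and the 2454 lower became 1677. Of those 14, ZNF22, ZNF32, ZNF33B, ZNF488, ZNF503 and ZNF511 lie on chromosome 10. ZNF33B, a KRAB gene (chromosome 10, 42574185 to 42638570, minus strand), had 9.35, 8.84 and 8.32 TPM in control, 9.15, 9.26 and 9.23 in KO1 and 16.4, 13.7 and 13.9 in KO2. KO2 stood above both other lines, which overlapped. This was a log2 fold change of 0.73 in KO2 against control (SE 0.0916, limma adjusted p = 0.000236) and of 0.67 against KO1 (SE 0.0916, limma adjusted p = 0.000603). ZNF32 had 23.6, 24.1 and 26.8 TPM in control, 33.2, 27.9 and 27.8 in KO1 and 40.0, 42.4 and 46.1 in KO2 (KO2 against KO1: log2 fold change 0.54, SE 0.086, limma adjusted p = 0.00147). Its difference in KO1 (log2 fold change 0.25, SE 0.086, limma adjusted p = 0.0466) was lost without control replicate A or B, KO1 replicate A, B or C or KO2 replicate A or B (log2 fold changes of 0.17 to 0.29, limma adjusted p of 0.0514 to 0.15). ZNF511 rose from 53.4 to 67.8 TPM in control to 82.5 to 92.8 in KO2, with 52.2 to 59.6 in KO1 (KO2 against KO1: log2 fold change 0.65, SE 0.0899, limma adjusted p = 0.000635).

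In the other direction ZNF618, ZNF521 and ZNF117 were lower in KO2, while KO1 overlapped control. ZNF618, a partner of the methylated-DNA reader UHRF2, had 6.44, 5.83 and 5.55 TPM in control, 6.78, 6.01 and 5.07 in KO1 and 2.72, 4.07 and 2.75 in KO2. On the log2 scale it changed by -0.92 in KO2 against control (SE 0.18, limma adjusted p = 0.00336) and by -0.92 against KO1 (SE 0.18, limma adjusted p = 0.00413). ZNF521, a cofactor of stem and progenitor cells, had 8.37, 6.91 and 8.77 TPM in control, 10.2, 9.32 and 8.47 in KO1 and 4.79, 5.05 and 5.27 in KO2. In KO2 against control the log2 fold change was -0.66 (SE 0.119, limma adjusted p = 0.00211), and against KO1 it was -0.88 (SE 0.119, limma adjusted p = 0.000548). In each the KO2 libraries lay below all 6 others. ZNF117, which shares its span with the endogenous retroviral gene ERV3-1, had 1.1 to 1.77 TPM in control, 1.67 to 1.75 in KO1 and 0.787 to 1.07 in KO2 (KO2 against KO1: log2 fold change -0.92, SE 0.245, limma adjusted p = 0.0188). Its call against control in KO2 (limma adjusted p = 0.0475) was lost without control replicate A or C, KO1 replicate A, B or C or KO2 replicate A or C (log2 fold changes of -0.73 to -0.60, limma adjusted p of 0.0651 to 0.142).

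Other genes set KO1 apart. ZNF608 had 4.15, 4.23 and 3.62 TPM in control, 6.82, 6.24 and 7.61 in KO1 and 5.33, 3.62 and 3.52 in KO2. The log2 difference was 0.78 in KO1 against control (SE 0.172, limma adjusted p = 0.00636) and -0.75 in KO2 against KO1 (SE 0.172, limma adjusted p = 0.00948). ZNF75A, with KRAB and SCAN matches, had 3.25 to 4.59 TPM in control, 6.35 to 6.82 in KO1 and 3.74 to 5.47 in KO2. This was a log2 fold change of 0.76 in KO1 against control (SE 0.17, limma adjusted p = 0.00675) and of -0.57 in KO2 against KO1 (SE 0.17, limma adjusted p = 0.0301). In both the KO1 libraries lay above all others. ZNF516, which activates the brown-fat gene UCP1, had 16.9, 18.1 and 17 TPM in control, 12.3, 11.5 and 11.7 in KO1 and 16.8, 18 and 15.8 in KO2 (KO1: log2 fold change -0.55, SE 0.0727, limma adjusted p = 0.000357; KO2 against KO1: log2 fold change 0.51, SE 0.0727, limma adjusted p = 0.000731), and an antisense gene, ZNF516-AS1, overlaps it. ZNF768, which binds old interspersed repeats of the MIR type, had 107, 103 and 108 TPM in control, 96.8, 82 and 87.2 in KO1 and 104, 107 and 97.2 in KO2. On the log2 scale it changed by -0.26 in KO1 against control (SE 0.0623, limma adjusted p = 0.00993) and by 0.22 in KO2 against KO1 (SE 0.0623, limma adjusted p = 0.0262). For these 2 the KO1 libraries lay below all others. ZNF217, an oncogene that is amplified in several carcinomas and works with CoREST-type complexes, had 38.3, 36.1 and 36.8 TPM in control, 42.7, 41.1 and 45.6 in KO1 and 31.1, 33.6 and 28.6 in KO2. The lines did not overlap, with KO1 above and KO2 below control (log2 fold change 0.22, SE 0.0673, limma adjusted p = 0.0292 in KO1; log2 fold change -0.25, SE 0.0673, limma adjusted p = 0.0168 in KO2; KO2 against KO1: log2 fold change -0.47, SE 0.0673, limma adjusted p = 0.000713). The KO1 call of ZNF217 was lost without control replicate B or C or KO1 replicate A or C (log2 fold changes of 0.18 to 0.23, limma adjusted p of 0.0604 to 0.11), and that in KO2 without control replicate A (a log2 fold change of -0.23, a limma adjusted p of 0.0581).

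The calls of some other genes were lost without single libraries. ZNF707, a KRAB gene, was higher in each clone (log2 fold change 0.33, SE 0.113, limma adjusted p = 0.0491 in KO1; log2 fold change 0.36, SE 0.113, limma adjusted p = 0.0362 in KO2). Its call in KO1 was lost without control replicate A or B, KO1 replicate A, B or C or KO2 replicate A, B or C (log2 fold changes of 0.29 to 0.35, limma adjusted p of 0.0556 to 0.137), and that in KO2 without control replicate A or B, KO1 replicate B or C or KO2 replicate A or B (log2 fold changes of 0.32 to 0.36, limma adjusted p of 0.0511 to 0.109). ZNF597, an imprinted gene, had 2.31, 1.6 and 1.62 TPM in control, 2.55, 2.7 and 3.31 in KO1 and 2.46, 2.24 and 3.01 in KO2. It was higher in KO1 (log2 fold change 0.65, SE 0.207, limma adjusted p = 0.0357), a call lost without control replicate B or C or KO1 replicate B or C (log2 fold changes of 0.53 to 0.68, limma adjusted p of 0.0656 to 0.125). ZNF669 (log2 fold change 0.81, SE 0.218, limma adjusted p = 0.017) was higher in KO1 with 9.62 to 12.6 TPM against 4.89 to 8.13 in control, and this call was lost without control replicate B or KO1 replicate A (log2 fold changes of 0.63 to 0.70, limma adjusted p of 0.0583 to 0.0644). ZNF365, which protects stalled replication forks, was higher in KO1 (log2 fold change 0.62, SE 0.181, limma adjusted p = 0.0235), and lost its call without control replicate A or B or KO1 replicate B or C (log2 fold changes of 0.55 to 0.66, limma adjusted p of 0.0515 to 0.0787). ZNF517 was lower in KO1 (log2 fold change -0.72, SE 0.194, limma adjusted p = 0.017) and lost its call without control replicate C or KO1 replicate B or C (log2 fold changes of -0.64 to -0.62, limma adjusted p of 0.0562 to 0.0618). In contrast ZNF689, which was lower in KO2 (15, 17.4 and 15.3 TPM, against 19.9, 18.9 and 22 in control and 19.3, 20.2 and 18.5 in KO1; log2 fold change -0.35, SE 0.0831, limma adjusted p = 0.00992), kept its call in all 9 of these fits. Its KO1 difference was not called (log2 fold change -0.065, SE 0.0831, limma adjusted p = 0.588).

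The genes were then set side by side by their domains. By the same limma threshold, 20.2% were called higher and 14.1% lower among all genes in KO1 and 15.6% and 14.8% in KO2. Of the 92 tested genes with a KRAB match, 23 were higher and 5 lower in KO1 (median log2 fold change 0.16) and 13 were higher and 4 lower in KO2 (0.059). Of the 108 with neither KRAB nor SCAN, 33 were higher and 7 lower in KO1 (0.12) and 12 were higher and 13 lower in KO2 (0.032). In KO2 the KRAB genes were thus higher in 14.1% and the genes with neither domain in 11.1%, near or below the share of all genes. Of the 10 genes with SCAN alone, 1 was lower in KO1 and 1 was lower in KO2. Among the 181 tested KRAB genes of chromosome 19, 88 were higher and 4 lower in KO1 with a median of 0.37, and 47 were higher and 6 lower in KO2 with a median of 0.18. The medians of KRAB genes off chromosome 19 were thus lower than on it in each clone; the difference was not tested. The summed level of the 100 KRAB genes was 854, 849 and 841 TPM in control, 934, 917 and 935 in KO1 and 911, 895 and 896 in KO2. The 3 lines did not overlap in this sum, in which abundant genes weigh most, with control lowest and KO1 highest.

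By finger number, 14 were higher and 2 lower in KO1 of the 40 tested genes with at least 14 fingers (median 0.23). Of the 70 with 9 to 13 fingers, 17 were higher and 6 lower (0.09), of the 65 with 4 to 8, 20 were higher and 2 lower (0.14), and of the 28 with 1 to 3, 2 were higher and 2 lower (0.059). In KO2 the medians of these 4 classes were 0.072, -0.0089, 0.093 and 0.02. No steady order with finger number was seen in either clone, and over all genes 20.2% were called higher and 14.1% lower in KO1 (limma adjusted p under 0.05). By the first base of the GENCODE canonical transcript, 23 were higher and 6 lower in KO1 of the 85 genes that start with A (median 0.14) and 7 were higher and 6 lower in KO2 (0.067). Of the 96 that start with G, 28 were higher and 3 lower in KO1 (0.13) and 13 were higher and 9 lower in KO2 (0.015), and of the 27 with C, 5 were higher and 3 lower in KO1 (0.071) and 5 were higher and 2 lower in KO2 (0.039). Over all protein-coding genes that start with A, 21.7% were called higher and 15.1% lower in KO1 and 16.3% higher and 17.3% lower in KO2, and over those that start with G 21.6% higher and 14.5% lower in KO1 and 15.6% higher and 16% lower in KO2. Their medians in KO1 were 0.034 for A and 0.032 for G. Genes that start with A thus stood close to those that start with G in KO1, as did all protein-coding genes. In KO2 15.3% of the A genes and 22.9% of the G genes were called, beside 33.6% and 31.6% of all protein-coding genes. By the RefSeq start, 19 were higher and 5 lower in KO1 of 74 genes with A, and 23 and 2 of 76 with G. In KO2 these were 4 and 3 with A and 10 and 6 with G, while 6 and 2 of 26 with C were called. Whether the start base has a part in these differences was not tested.

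**Figure D3:**
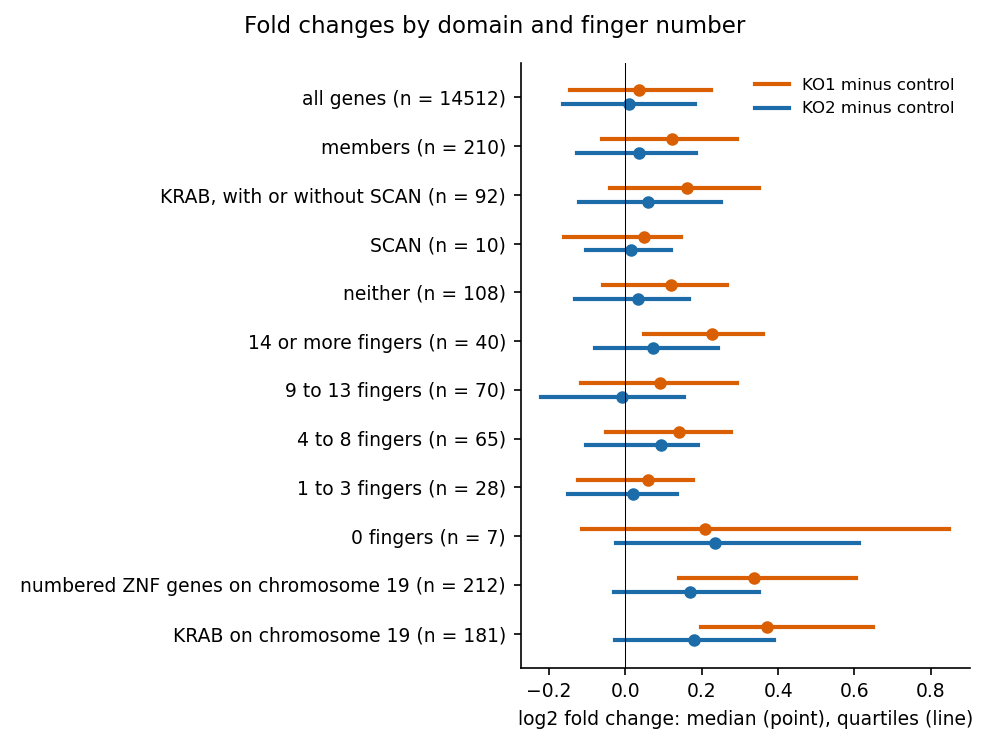
Median (point) and quartiles (line) of the log2 fold change in KO1 and KO2 minus control, for all tested genes, for the tested members by domain and finger number, and for numbered ZNF genes of chromosome 19. The members' medians are 0.12 in KO1 and 0.036 in KO2, and those of chromosome 19 0.34 and 0.17.

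The genes were also grouped by known role, and read beside the shares of all genes called by limma (20.2% higher and 14.1% lower in KO1, 15.6% and 14.8% in KO2). Of 23 promoter and chromatin factors without KRAB, 8 were higher and 1 lower in KO1 (median 0.11) and 2 were higher and 3 lower in KO2 (-0.016). ZNF703, ZNF518B, ZNF217, ZNF521 and ZNF516, described above, belong to this group. Of 20 genes with a described target or trait, most of them KRAB factors, 3 were higher in KO1 and 4 were higher and 3 lower in KO2. Among the latter ZNF445, which keeps imprints, had 8.0 to 8.79 TPM in control and 9.31 to 10.3 in KO2 (log2 fold change 0.25, SE 0.0855, limma adjusted p = 0.0483), a call that leaving out any of 8 libraries ended (limma adjusted p of 0.0559 to 0.137). Of the 14 factors of RNA, ribosomes and the spindle, 3 were higher and 1 lower in KO1 and 1 was higher and 1 lower in KO2. One of them, ZNF598, was higher in KO2 (log2 fold change 0.32, SE 0.0814, limma adjusted p = 0.0131) and not in KO1 (log2 fold change 0.015, limma adjusted p = 0.907), and ZNF346, which binds double-stranded RNA, was higher in KO1 (log2 fold change 0.26, SE 0.0746, limma adjusted p = 0.0233), a call lost without control replicate B or C or KO1 replicate A or C (log2 fold changes of 0.21 to 0.26, limma adjusted p of 0.0566 to 0.0899). The Z3 factors ZNF592, ZNF532 and ZNF687 bind the chromatin reader ZMYND8. ZNF592 had 32.5, 35.6 and 35.2 TPM in control, 42.4, 41 and 40.2 in KO1 and 34.4, 34.4 and 32.1 in KO2. KO1 lay above both other lines (log2 fold change 0.26, SE 0.0557, limma adjusted p = 0.00549; KO2 against KO1: log2 fold change -0.29, SE 0.0557, limma adjusted p = 0.00357). ZNF532 was likewise higher in KO1 (log2 fold change 0.35, SE 0.0636, limma adjusted p = 0.00237) and ZNF687 was not called (log2 fold change 0.035, SE 0.0796, limma adjusted p = 0.767). Of 16 SCAN factors, 1 was higher and 1 lower in KO1 and 1 was lower in KO2.

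The 94 genes in clusters and the others had like medians in KO1, where limma called 20.2% of all genes higher and 14.1% lower. In KO2 it called 15.6% of all genes higher and 14.8% lower, and 16.9% were lower in KO2 than in KO1. Of the 87 tested in clusters, 23 were higher and 4 lower in KO1 (median 0.14), and of the 123 outside, 33 were higher and 9 lower (0.12). The cluster from ZNF605 to ZNF268 at the end of chromosome 12 held 7 genes: 3 were higher and 1 lower in KO1 (median 0.36) and 1 was higher in KO2. Within it ZNF268 and the KRAB gene ZNF140 (log2 fold change 0.51, SE 0.113, limma adjusted p = 0.00652) were higher in KO1. ZNF605 was lower there (log2 fold change -0.62, SE 0.153, limma adjusted p = 0.0118), so that neighbours moved in opposite directions. Each of ZNF268, ZNF140 and ZNF605 overlaps another listed gene, which leaves their values uncertain. The cluster from ZNF736 to ZNF92 on chromosome 7 held 7 genes. Of these 2 were higher in KO1, 1 was higher and 1 lower in KO2, and 3 were lower in KO2 than in KO1. There ZNF107 and ZNF736 (0.46, limma adjusted p = 0.0106) were higher in KO1 and ZNF117 lower in KO2. The largest cluster, 10 genes from ZNF48 to ZNF646 lies on chromosome 16. Of its 9 tested genes, 2 were higher and 1 lower in KO1, with ZNF629 higher (log2 fold change 0.33, SE 0.0681, limma adjusted p = 0.00443) and ZNF768 lower. In the cluster from ZNF786 to ZNF862 on chromosome 7, 1 was higher in KO1 of 8 tested. No cluster had all of its tested genes called in 1 direction.

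Each gene was also set beside the median log2 fold change of up to 50 tested genes around it, numbered ZNF genes left out. The aim was to see whether its stretch of chromosome differed between lines. In KO1 that median lay beyond 0.2 from 0 on the log2 scale for 5 of the 210 genes, and in KO2 for 30. In KO2, 14 of these lie on chromosome 10, with starts from 37776526 to 133308910 and neighbour medians of 0.27 to 0.66, and 11 on chromosome 3, with starts from 21412218 to 75678660 and medians of 0.25 to 0.44. On the former 4 of the 14 were higher in KO2 (ZNF33B, ZNF32, ZNF511 and ZNF488) and ZNF239 was lower. On the latter 6 of 11 were higher (ZNF860, ZNF621, ZNF445, ZNF197, ZNF589 and ZNF717) and ZNF385D was lower; of all genes 15.6% were higher and 14.8% lower. The neighbours of ZNF33B had a median of 0.38, those of ZNF32 0.59, those of ZNF511 0.43 and those of ZNF197 0.39, beside own log2 fold changes of 0.73, 0.79, 0.49 and 0.48. ZNF385D went against its neighbours (median 0.27), and the rise of ZNF860 was far above theirs (0.28). The KO2 call of ZNF445 was lost without control replicate A, B or C, KO1 replicate A, B or C or KO2 replicate A or C (log2 fold changes of 0.22 to 0.29, limma adjusted p of 0.0559 to 0.137), that of ZNF621 without control replicate B or C (log2 fold changes of 0.24 to 0.26, limma adjusted p of 0.056 to 0.0571) and that of ZNF239 without control replicate A or C, KO1 replicate A or KO2 replicate A, B or C (log2 fold changes of -0.46 to -0.31, limma adjusted p of 0.0532 to 0.135). DNA copy number was not analysed here, and its part in these differences was not tested.

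When the running median of 51 neighbouring genes was subtracted from each library, 38 of the 56 higher and 11 of the 13 lower genes in KO1 kept their call and direction, and 15 of the 25 and 12 of the 18 in KO2; 8 other genes became called in KO1 and 13 in KO2. That running window kept numbered ZNF genes in, unlike the neighbour medians above. ZNF343 lost its call in each clone, with log2 fold changes of -0.14 (limma adjusted p = 0.224) and 0.078 (0.527), and so did ZNF519, with -0.11 (0.551) and -0.25 (0.202). In KO2 ZNF511 moved to 0.026 (0.854), ZNF197 to 0.16 (0.149), ZNF445 to -0.085 (0.517) and ZNF621 to -0.10 (0.381). ZNF185, ZNF860, ZNF268, ZNF703, ZNF853, ZNF594, ZNF518B and ZNF385D kept theirs in each clone. ZNF33B stood at 0.39 (limma adjusted p = 0.0115) and ZNF32 at 0.33 (0.0124) in KO2.

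**Figure D4:**
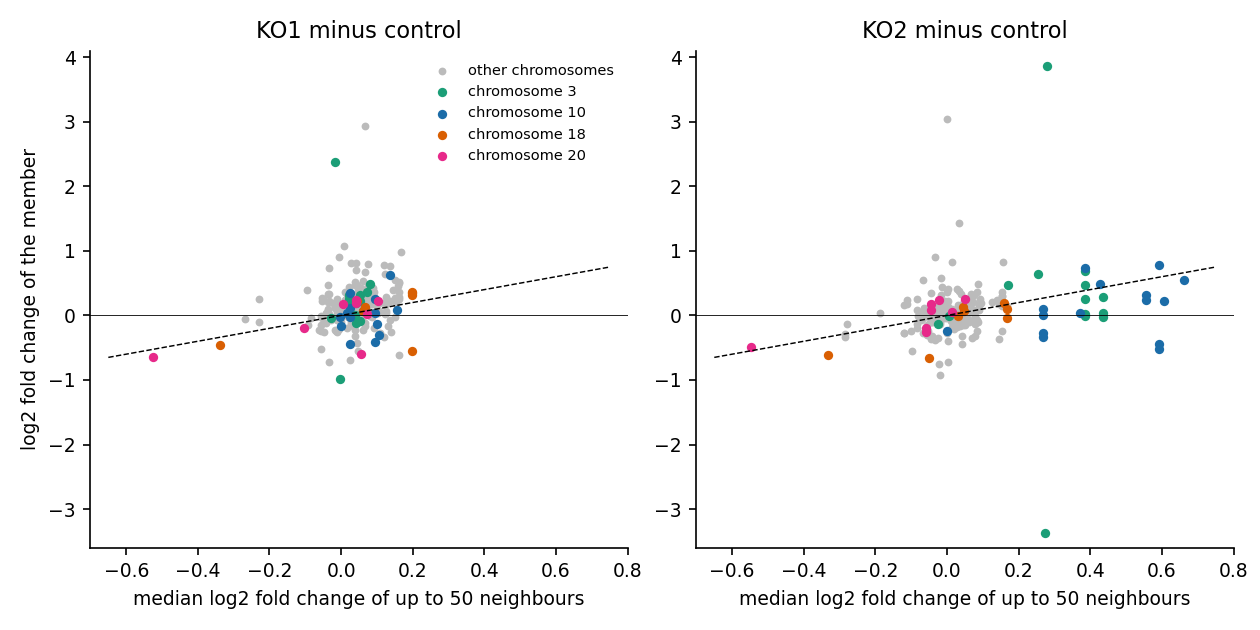
Log2 fold change of each tested gene against the median of up to 50 tested neighbours, numbered ZNF genes left out, in KO1 (left) and KO2 (right). The dashed line marks equal values and colours mark chromosomes 3, 10, 18 and 20. In KO2 the genes of chromosomes 10 and 3 spread to neighbour medians of 0.66 and 0.44, while ZNF343 on chromosome 20 sits at -0.52 in KO1 and -0.55 in KO2.

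Below the level of testing, 3 KRAB genes were almost without reads in 1 line and not in another. They were picked from these same reads, by 3 or fewer in a line and 20 or more in another. Large ratios thus follow from the choice, and the bounds and interval below are descriptions, not tests. ZNF141, at the tip of chromosome 4 (337814 to 384868), had 0, 0 and 0 reads in the control libraries, 27, 25 and 16 in KO1 and 5, 9 and 6 in KO2. Its read rate was at least 22.6-fold higher in KO1 and at least 7.18-fold higher in KO2 than a floor of 3 reads over the 3 control libraries. ZNF354C had 2, 1 and 1 reads in control, 0, 0 and 0 in KO1 and 10, 4 and 13 in KO2, so that KO2 was at least 9.71-fold higher than KO1. ZNF718, also at the tip of chromosome 4, had 1, 0 and 1 reads in control, 2, 0 and 0 in KO1 and 6, 11 and 7 in KO2, a ratio of 12.9 between KO2 and control (exact 95% counting interval 3.21 to 113). Bounds and intervals cover counting error only, since reads are not independent molecules. The other untested genes, ZNF879, ZNF713, ZNF425, ZNF596, ZNF641, ZNF747, ZNF19 and ZNF469, averaged 0.348 to 0.962 TPM.

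The machinery that KRAB proteins recruit was measured in the same libraries. Of 15 co-repressor and HP1 genes, 8 were higher and 1 lower in KO1 and 4 were lower in KO2, while 9 were lower in KO2 than in KO1 (limma adjusted p under 0.05). Of all genes 20.2% were called higher and 14.1% lower in KO1, 14.8% were lower in KO2 and 16.9% lower in KO2 than in KO1. The list had medians of 0.11, -0.05 and -0.16. TRIM28, the scaffold bound by KRAB, had 594, 588 and 623 TPM in control, 737, 669 and 707 in KO1 and 629, 654 and 585 in KO2. It was higher in KO1 (log2 fold change 0.23, SE 0.0494, limma adjusted p = 0.00612) and not called in KO2 (log2 fold change 0.048, SE 0.0494, limma adjusted p = 0.501). The HP1-alpha gene CBX5 had 50.3, 46.2 and 46.3 TPM in control, 61.9, 63.2 and 65.8 in KO1 and 48.9, 47.4 and 47.4 in KO2 (KO1: log2 fold change 0.42, SE 0.0489, limma adjusted p = 0.000171; KO2 against KO1: log2 fold change -0.41, SE 0.0489, limma adjusted p = 0.000267), and SETDB1 was called in neither clone (0.011 and 0.075). HDAC2 was lower in each clone without overlap (log2 fold changes -0.17 and -0.17, limma adjusted p = 0.0335 and 0.0358). CHD3 was higher in KO1 (0.20, limma adjusted p = 0.0136) and lower in KO2 (-0.24, limma adjusted p = 0.00597). Of the other HP1 genes, CBX3 was lower in KO2 (-0.15, limma adjusted p = 0.0415) and CBX1 was called against control in neither clone. Like CBX5, CBX1 was lower in KO2 than in KO1 (log2 fold change -0.19, limma adjusted p = 0.00744). Of the 6 genes of the HUSH silencing complex and its partners, 1 was higher and 1 lower in KO1, and of 11 other enzymes of H3K9 methylation, 1 was higher and 2 lower in KO1 and 1 was lower in KO2.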

How the data were processed

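RNA-seq of 9 input mRNA libraries was used, 3 from each of 3 lines; 9 libraries of m6A-immunoprecipitated mRNA were not analysed here. The authors deposited log2 TPM values of 15258 Ensembl genes, made with a small prior; raised back from the logarithm, each column totals 1e+06. Per the submitters' processing notes, the tools were edgeR 3.12.1, R 3.3.3, featureCounts, HISAT2 2.0.4, deepTools 3.0.2 and SAMtools 1.7, with hg38. Annotation, strand setting and any filter on genes go unstated there. Whole reads were recovered for 100% of genes (tolerance 0.001 reads), and library totals were 7848089 to 11393206. No 2 replicates agreed within sampling noise (chi-square over its degrees of freedom from 1.22 to 3.71), so each library was counted.

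The deposited log2 values of all 9 libraries were fitted by limma-trend (R 4.3.3, limma 3.58.1; 6 residual degrees of freedom), and two-sided p-values were adjusted by Benjamini-Hochberg over the 14512 genes whose mean reached 1 TPM. The fit was tested on simulated data. Symbols, positions and coding sequences came from GENCODE 44, which held 15138 of the 15258 identifiers, and promoters from RefSeq (GRCh38.p14). A finger was a match to a C2H2 spacing pattern, KRAB at most 7 mismatches to a consensus of 13 residues, and SCAN at most 9 to one of 20, limits set after seeing the distribution of mismatches. Fold changes are on the deposited log2 scale and those of genes with few reads depend on the prior.

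Members and gene lists were chosen with earlier results of these data known. Named genes were up to 8 each way with the largest mean change among those called in both clones without overlap, 4 each way per clone among those also called between clones, the 10 most abundant, up to 3 per list and cluster, those with 3 or fewer reads in a line and 20 or more in another, and 2 on each side of the filter. Genes named outside this rule (ZNF22, ZNF488, ZNF503, ZNF589, ZNF717) were named after their values were seen. The alternatives were 2 pseudocounts, 2 filters, 2 scalings, no variance trend, a fit to the pair of lines alone, a block for the replicate letter, leaving out each library, limma-voom on the recovered reads (library totals, no further scaling) and subtraction of a running median of 51 neighbouring genes. Letters do not pair libraries, since none of the labels ties them to a shared culture or day and same-letter deviations correlated between -0.074 and 0.037.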

Additional observations from a re-analysis of the deposited data

Results flagged for a closer look

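The named genes below were called against control in at least 1 clone and also differed between the clones, by limma's test of KO2 against KO1 (adjusted p under 0.05). The KO2 minus KO1 difference on the log2 scale was 1.48 for ZNF860, 0.97 for ZNF853, 0.67 for ZNF33B, 0.65 for ZNF511, 0.54 for ZNF32, 0.51 for ZNF516, 0.31 for ZNF598, 0.30 for ZNF197, 0.22 for ZNF768 and 0.20 for ZNF367. It was -2.39 for ZNF385D, -0.92 for ZNF117, -0.92 for ZNF618, -0.88 for ZNF521, -0.75 for ZNF608, -0.57 for ZNF75A, -0.57 for ZNF786, -0.48 for ZNF239, -0.47 for ZNF217, -0.47 for ZNF518B, -0.38 for ZNF107, -0.34 for ZNF37A, -0.33 for ZNF736, -0.33 for ZNF385A, -0.33 for ZNF629, -0.30 for ZNF35, -0.29 for ZNF592, -0.29 for ZNF532 and -0.29 for ZNF689. Some of the calls against control were lost without single libraries. This held for ZNF786 in KO1 with any 1 of 5 libraries left out (limma adjusted p of 0.0502 to 0.103). It also held for ZNF367 in KO2 with any 1 of 5 (0.0595 to 0.107) and for ZNF35 in KO1 with any 1 of 3 (0.0545 to 0.0638). Further such losses are given where the genes are described. The difference of ZNF860 rests on few reads. With 1 clone of each kind, these differences cannot be told apart from differences between any 2 clones of MEL624.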

How the results depend on the processing

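When each library was left out in turn, the count of genes was 39 to 56 higher and 7 to 15 lower in KO1, 18 to 24 and 13 to 17 in KO2, 8 to 14 and 20 to 33 for KO2 against KO1, and 11 to 17 and 1 to 4 in both clones. Over all genes these fits gave 2210 to 3047 higher and 1513 to 2159 lower in KO1. They gave 1767 to 2221 and 1634 to 2090 in KO2, and 1275 to 1658 and 1677 to 2318 for KO2 against KO1. A minimum of 5 TPM gave 8 lower in KO1 and 2 lower in both, since fewer genes were tested. With limma-voom the counts were 21 and 9, and over all genes 2965 were lower in KO1, against 2047 in the main fit. Subtracting the running median gave 9 higher in KO2 than KO1 and 3 lower in both. It also changed the sign of ZNF343 (0.078), ZNF445 (-0.085) and ZNF621 (-0.10) in KO2, where none of them was then called. The cause was not tested. With the replicate letter as a block the counts were 49 and 9 in KO1 and 20 and 15 in KO2. They were 13 and 27 between the clones and 13 and 4 in both. Over all genes the block gave 2574 and 1801 in KO1, 1983 and 1894 in KO2 and 1489 and 2027 between the clones. PCIF1 kept -1.26 and 0.066. Of 76 calls of named genes, 13 were lost with the block, 9 to 23 without 1 library, 22 with the running median, the 3 with a changed sign among them, 5 with limma-voom and 4 with median centring. Genes under 1 TPM have few reads and were left out of the main fit. With no filter on level, all 221 genes gave 56 higher and 15 lower in KO1 and 29 and 19 in KO2. The whole table of 15258 genes then gave 3011 and 2160 in KO1 and 2360 and 2271 in KO2.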
